A study of Mus musculus with 34 samples.

Results

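Transcript levels of 9 genes that regulate the G1 phase of the cell cycle were followed in all 34 RNA-seq libraries of a study of NuRD-deficient mouse embryonic stem (ES) cells. The genes were the D cyclins Ccnd1, Ccnd2 and Ccnd3, the kinase gene Cdk6, the inhibitor gene Cdkn1b and the INK4 inhibitor genes Cdkn2a, Cdkn2b, Cdkn2c and Cdkn2d. They were chosen by function, as 9 of 48709 genes listed in the files of 16 Control and Mta123KO libraries and 9 of 22018 genes in the files of 18 single-mutant libraries. NuRD is a chromatin complex that joins nucleosome remodelling to histone deacetylation, and the MTA proteins, encoded by Mta1, Mta2 and Mta3, hold its parts together.

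All cells were mouse ES cells of the strain label 129/Ola. Control and Mta123KO cells, which lack all of the MTA genes, were each sequenced from 2 lines with 2 libraries per line and culture label. One culture label is 2i+LIF (2iL), in which blockade of the kinases Mek and Gsk3 together with LIF holds cells in the naive state, and the other is 48 h in N2B27 medium without inhibitors or LIF. The single-mutant libraries, 3 per genotype and all labelled 2i+LIF, were Mta1_del/del with its parent Mta1_flox/flox, Mta2_KO with Mta2_WT, and Mta3_del/del with its parent Mta3_flox/flox. The floxed parents carry loxP sites around exons that Cre recombinase removes in the deleted cells. Mta123KO cells were made by Cre deletion of Mta3 in cells already null for Mta1 and Mta2. Nothing in the labels says that libraries of a line came from separate cultures, and p-values then measure the spread between libraries, which may be technical. Control and Mta123KO tests treat libraries of a line as independent, although each genotype has only 2 lines.

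D cyclins are the regulatory subunits that activate the kinases Cdk4 and Cdk6 in G1. The active kinases phosphorylate the retinoblastoma (Rb) family of pocket proteins, which releases E2F transcription factors and lets cells enter S phase. INK4 proteins bind Cdk4 and Cdk6 and block D cyclin binding, while Cip/Kip proteins such as p27Kip1 (from Cdkn1b) act mainly on Cdk2 complexes. Mouse ES cells are known for a short G1 phase, high Cdk2 activity and low D cyclin and inhibitor levels, and the G1 phase lengthens as they leave the naive state.

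Total counts ran from 37855790 to 57602285 per library in the Control and Mta123KO series and from 13105820 to 40613585 in the single-mutant series. At this depth the lowest count of any of the 9 genes in the 16 Control and Mta123KO libraries was 18, for Cdkn2c. Levels are given as CPM, a gene's count scaled to a fixed library total after edgeR's TMM scaling of that total. Mta2 transcripts averaged 123 CPM in Control and 6.72 in Mta123KO libraries labelled 2iL. They averaged 226 CPM in Mta2_WT and 9.94 in Mta2_KO. Mta3 fell from 70.2 CPM in Mta3_flox/flox to 11.3 in Mta3_del/del. Mta1 averaged 86.2 CPM in Mta1_flox/flox and 43.9 in Mta1_del/del, a log2 fold change of -0.97 that did not pass the test (adjusted p = 1 in edgeR's quasi-likelihood test). Reads of the exons that Cre leaves in place still count towards these genes. The 9 naive pluripotency genes (Esrrb, Nanog, Klf4 and others) summed to 166 to 257 CPM in Control libraries labelled 2iL and to 3753 to 4152 in Control libraries labelled 48 h. All 9 were higher under the 48 h label, in Control and in Mta123KO. In the single-mutant libraries, labelled 2iL, the same sum ran from 3347 to 6304 CPM. The 6 post-implantation epiblast genes went the other way in Control, with sums of 1242 to 1825 CPM labelled 2iL and 105 to 121 labelled 48 h. The names of the deposited files give these 16 libraries the opposite culture from their labels. In Control the naive gene sums go with the file names. Those labelled 48 h lie within the range of the single-mutant libraries, and those labelled 2iL lie below it. The labels are nonetheless followed here. Exchanging the labels would reverse the sign of each culture change and of each interaction below and swap the Mta123KO comparisons of the cultures.

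Differences were tested across all genes with edgeR, and a gene was called at a Benjamini-Hochberg adjusted p under 0.05 over all genes tested. All 9 genes passed the filter on low counts in every comparison. From the 2iL to the 48 h label in Control, 6 of the 9 were higher, against 29.5% of all tested genes, and 1 was lower, against 29.0%. The same change in Mta123KO gave 2 higher, against 12.4% of tested genes, and 1 lower, against 10% of them. Between Mta123KO and Control labelled 2iL, 3 were higher in Mta123KO (27.1% of all tested genes) and 2 lower (24.2%), and between the groups labelled 48 h, 4 were higher (26.6%) and 2 lower (23.4%). The interaction, which tests whether the culture change differs between genotypes, was positive for 1 of the 9 (12.5% of tested genes) and negative for 4 (10.6%). No member passed for the Mta1 deletion, where 0.0% of genes were called in either direction. With Mta2 knockout, 3 were higher (23.5%) and 2 lower (24.3%), and with Mta3 deletion none was higher (8.32%) and 1 was lower (7.84%). The median log2 fold change of the 9 was 0.41 for the Control culture change, where the median of all tested genes was 0.01. It was 0.31 and 0.44 for Mta123KO against Control labelled 2iL and 48 h, where all genes had a median of 0.01 in both. Scaling by the spike-in counts instead shifted the median of all genes by 0.18 for the Control culture change, by -0.18 for Mta123KO against Control labelled 48 h and by -0.26 for the interaction. With it the Control culture change called 5956 genes higher and 3668 lower, against 6261 and 6158, and the interaction called 1380 and 2441, against 2879 and 2427. For Mta123KO against Control labelled 48 h it called 3449 higher and 4215 lower, against 5608 and 4940.

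**Figure D1:**
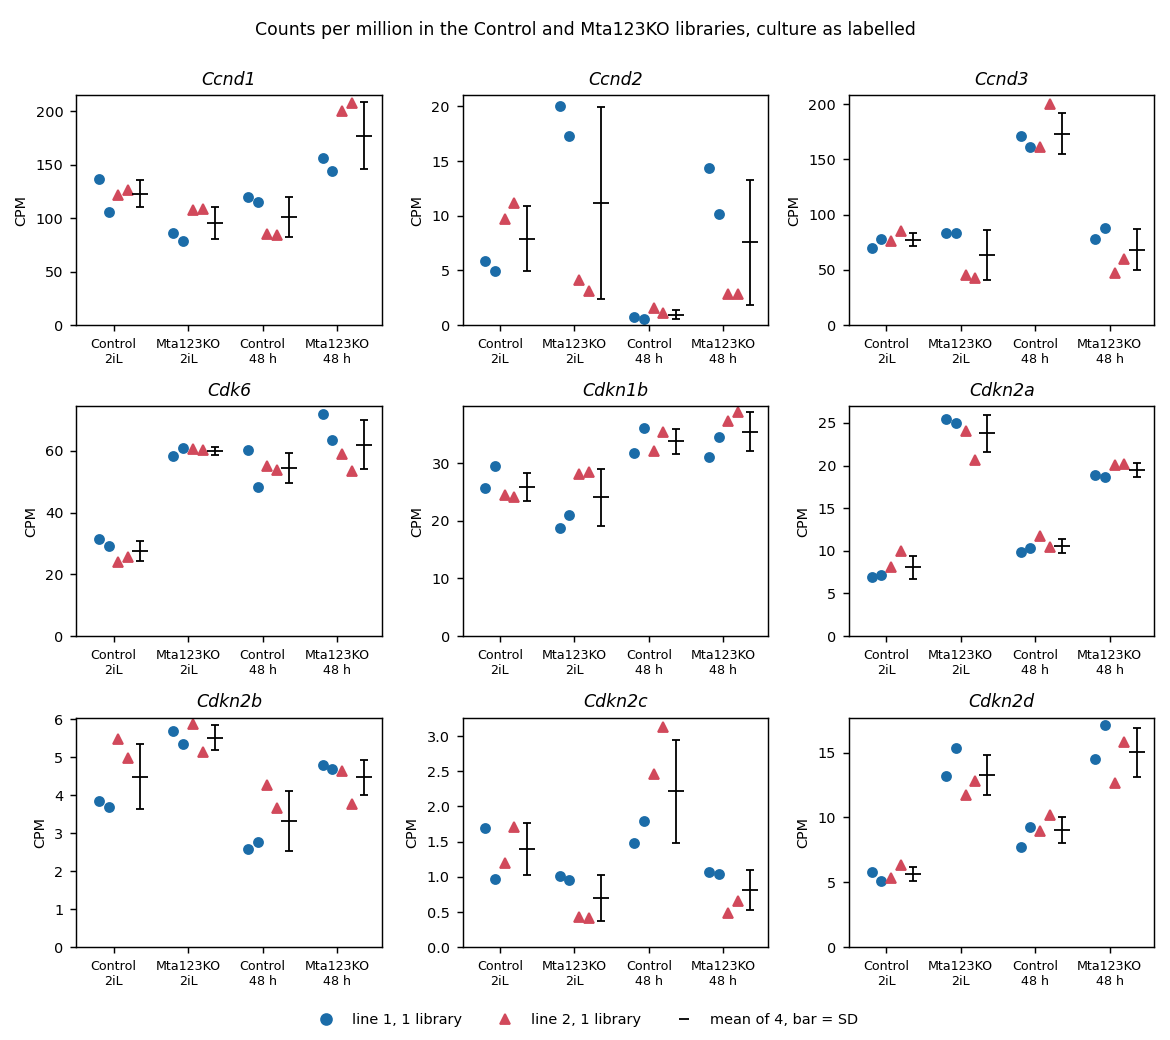
CPM (y axis, linear from 0) of the 9 genes in the 16 Control and Mta123KO libraries, grouped by genotype and culture label; circles are libraries of line 1 and triangles of line 2, and the black dash and bar give the mean and SD of 4 libraries. Ccnd2 in Mta123KO splits by line in both cultures, 17.3 to 20.03 CPM in line 1 and 3.14 to 4.13 in line 2 labelled 2iL, while Cdkn2a and Cdkn2d lie higher in all Mta123KO libraries than in all Control libraries of the same label.

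The D cyclins changed with culture in different directions. From the 2iL to the 48 h label, Ccnd1 rose 1.85-fold in Mta123KO, Ccnd3 rose 2.26-fold in Control and Ccnd2 fell 8.16-fold in Control. The interaction test called the difference between genotypes for Ccnd1 and Ccnd3. For Ccnd2 it was called only with the replicate number as a block or in DESeq2. With the libraries of a line summed, 0 of the 9 genes passed the interaction. Ccnd1 (ENSMUSG00000070348) lies on the minus strand of chromosome 7 at 144929931 to 144939925 of GRCm38, Ccnd2 (ENSMUSG00000000184) on the minus strand of chromosome 6 at 127125162 to 127152193, and Ccnd3 (ENSMUSG00000034165) on the plus strand of chromosome 17 at 47505051 to 47599691.

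Ccnd1, which encodes the D cyclin best known as a target of mitogen signalling, gave 136, 106, 122 and 126.5 CPM in the Control libraries labelled 2iL (lines 1, 1, 2 and 2). In Control labelled 48 h it gave 119, 115, 84.9 and 84.0 CPM. The line 1 libraries stayed within the range of the 2iL label and the line 2 libraries fell below it. The log2 fold change was -0.27 ± 0.12 (SE) and did not pass (adjusted p = 0.089), but it passed once the replicate number was blocked (-0.28, adjusted p = 0.0311). In Mta123KO, Ccnd1 gave 86.4, 78.5, 107 and 108 CPM labelled 2iL and 156, 144, 200 and 207 labelled 48 h, so that the 48 h libraries were all above the 2iL libraries. This rise had a log2 fold change of 0.89 ± 0.15 (adjusted p = 0.00456), and it differed from the Control change by 1.18 ± 0.21 (interaction, adjusted p = 0.000932). Against Control, Ccnd1 was 1.27-fold lower in Mta123KO labelled 2iL (adjusted p = 0.0358) and 1.76-fold higher labelled 48 h (adjusted p = 0.00242). The difference labelled 2iL came with overlapping groups and was lost in 5 of 8 fits that left out 1 library, namely without any 1 of the Control libraries 1_1, 2_1 and 2_2 or the Mta123KO libraries 1_1 and 1_2 (adjusted p 0.0694 to 0.102).

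Ccnd2 encodes the D cyclin with the lowest level of the family here. It gave 5.83, 4.95, 9.65 and 11.2 CPM in Control labelled 2iL and 0.688, 0.526, 1.53 and 1.10 in Control labelled 48 h, where raw counts were 20 to 64. All 4 libraries labelled 48 h were below all 4 labelled 2iL, and the drop was 8.16-fold (log2 fold change -3.03 ± 0.35, adjusted p = 2.23e-05). Fitted within each Control line, it was -3.10 in line 1 and -2.97 in line 2. In Mta123KO the lines differed more than the cultures. Line 1 had 20.03 and 17.3 CPM labelled 2iL and 14.4 and 10.2 labelled 48 h, while line 2 had 4.13 and 3.14 labelled 2iL and 2.86 and 2.83 labelled 48 h. The mean of line 1 was 5.13 times that of line 2 labelled 2iL and 4.32 times labelled 48 h. The Mta123KO culture change, -0.57 ± 0.74, did not pass (adjusted p = 0.633) unless the replicate number was fitted as a block, which gave -0.50 ± 0.11 (adjusted p = 0.00893).

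Labelled 48 h, Ccnd2 was 7.92-fold higher in Mta123KO than in Control (adjusted p = 0.00313), with all 4 Mta123KO libraries above all 4 Control libraries. This held with line 1 alone (log2 fold change 3.69) and with line 2 alone (1.58). Labelled 2iL, the comparison of all libraries gave 0.51 ± 0.58 (adjusted p = 0.488), and the 2 lines lay on opposite sides of Control, at 1.25 with line 1 alone (adjusted p = 0.00325) and -1.11 with line 2 alone (adjusted p = 0.0174). The interaction of 2.48 ± 0.90 did not pass (adjusted p = 0.0604) and passed with the replicate block (adjusted p = 1.09e-06) and in DESeq2 (adjusted p = 0.042). It also passed in 3 of 16 fits without 1 library (adjusted p 0.0352 to 0.131 over the 16). The 111 genes within 5 Mb of Ccnd2 had a median log2 difference of 0.04 between Mta123KO lines 1 and 2 labelled 2iL, where Ccnd2 had 2.35.

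Ccnd3 gave 70.0, 78.1, 76.3 and 85.1 CPM in Control labelled 2iL and 172, 161, 161 and 200.1 in Control labelled 48 h. The groups did not overlap and the rise was 2.26-fold (log2 fold change 1.18 ± 0.09, adjusted p = 6.29e-07), with 1.19 in line 1 and 1.17 in line 2. In Mta123KO, line 1 gave 83.0 and 83.0 CPM labelled 2iL and 78.2 and 87.9 labelled 48 h, and line 2 gave 44.9 and 42.4 and then 47.3 and 59.7. The culture change in Mta123KO was 0.10 ± 0.28 (adjusted p = 0.83) and the interaction was -1.06 ± 0.31 (adjusted p = 0.0218). Ccnd3 was 2.52-fold lower in Mta123KO than in Control labelled 48 h (adjusted p = 0.000333), with all Mta123KO libraries below all Control libraries. Labelled 2iL the difference of -0.27 ± 0.23 did not pass (adjusted p = 0.343), although line 2 alone was lower (-0.81, adjusted p = 5.23e-05) and line 1 alone was not (0.11, adjusted p = 0.256).

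Per kilobase of exon, Ccnd1 had the highest mean of the D cyclins in each group of Control and Mta123KO libraries. The length used joins all annotated exons of a gene, 4709 bases for Ccnd1, 9409 for Ccnd2 and 8775 for Ccnd3. Ranking and shares depend on it, and transcript lengths in these cells were not measured. In CPM, Ccnd3 was above Ccnd1 in Control labelled 48 h (means of 173 and 101). The share of Ccnd1 in the summed per-kilobase CPM of the family was 72.8% ± 2.97 (SD, n = 4) in Control labelled 2iL. In Control labelled 48 h Ccnd1 had 51.6% ± 6.30 and Ccnd3 had 48.1% ± 6.20. The ranges of Ccnd1 and Ccnd3 shares overlapped in that group, 43.8% to 57.1% and 42.8% to 56.0%. In Mta123KO, Ccnd1 held 70.7% ± 11.9 labelled 2iL and 80.9% ± 7.31 labelled 48 h. Ccnd2 held between 0.131% and 7.11% in any of these libraries. The summed level of the family was 35.7 ± 2.69 per-kilobase CPM in Control and 28.6 ± 0.916 in Mta123KO labelled 2iL, and 41.3 ± 3.60 and 46.1 ± 4.29 labelled 48 h.

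**Figure D2:**
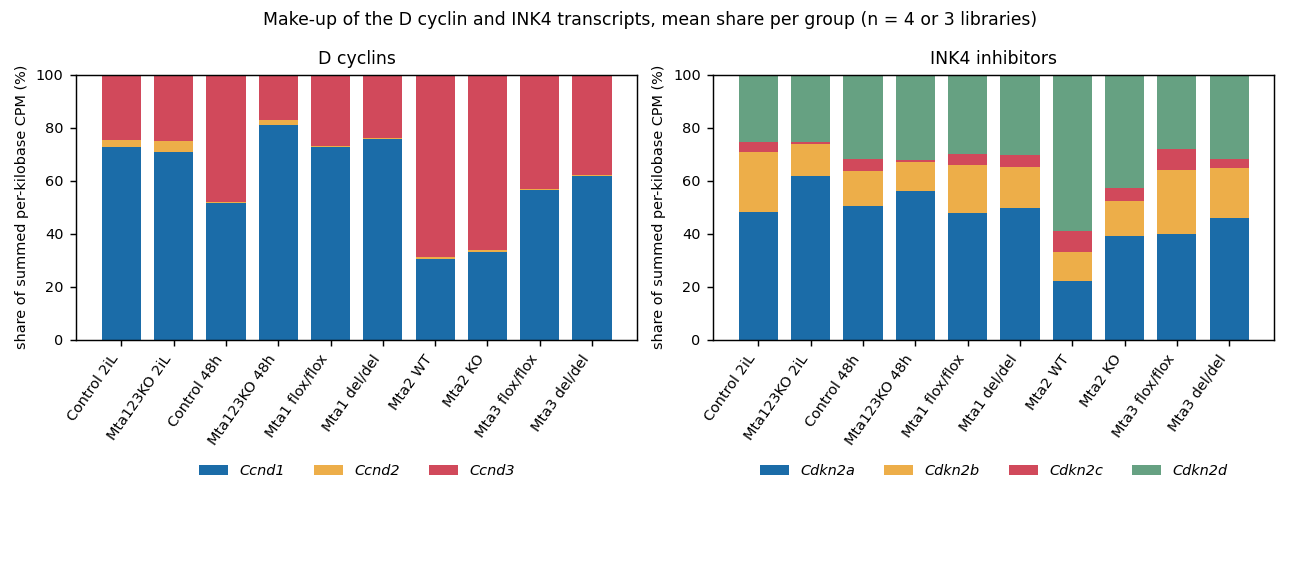
Mean share of each gene in the summed per-kilobase CPM of the D cyclins (left) and of the INK4 inhibitors (right), in percent, for the 10 groups of libraries (n = 4 in the Control and Mta123KO groups and 3 in the others). Ccnd1 takes 72.8% in Control labelled 2iL, 51.6% in Control labelled 48 h and 30.3% in Mta2_WT. Cdkn2a, whose counts do not separate p16Ink4a from p19Arf transcripts, takes 48.2% in Control and 61.6% in Mta123KO labelled 2iL.

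Cdk6 was higher in Mta123KO than in Control under the 2iL label, and the difference did not pass under the 48 h label. Cdk6 (ENSMUSG00000040274; plus strand of chromosome 5 at 3341485 to 3531008) encodes a kinase partner of the D cyclins. It gave 31.4, 29.1, 24.0 and 25.7 CPM in Control labelled 2iL and 58.2, 60.9, 60.7 and 60.4 in Mta123KO labelled 2iL, a gap of 2.21-fold with no overlap (log2 fold change 1.14 ± 0.09, adjusted p = 1.72e-05). Control labelled 48 h gave 60.4, 48.3, 55.1 and 53.9 CPM and Mta123KO 72.0, 63.6, 59.1 and 53.4. These groups overlapped and the difference of 0.20 ± 0.10 did not pass (adjusted p = 0.146). With line 1 of Mta123KO alone it did (0.33, adjusted p = 0.0178), and with line 2 alone it did not (0.06, adjusted p = 0.658). Control libraries thus rose 2.00-fold from the 2iL to the 48 h label (adjusted p = 4.19e-06), Mta123KO libraries moved by 0.04 ± 0.09 (adjusted p = 0.79), and the interaction was -0.94 ± 0.14 (adjusted p = 0.00019).

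Cdkn1b rose from the 2iL to the 48 h label in both genotypes. Cdkn1b (ENSMUSG00000003031; plus strand of chromosome 6 at 134920401 to 134925513) encodes p27Kip1, the Cip/Kip inhibitor that is largely controlled through its protein stability. It gave 25.6, 29.5, 24.5 and 24.1 CPM in Control labelled 2iL and 31.8, 36.0, 32.1 and 35.4 labelled 48 h, and 18.8, 20.9, 28.1 and 28.4 and then 31.1, 34.6, 37.3 and 38.8 in Mta123KO. In each genotype all libraries labelled 48 h were above all labelled 2iL. The log2 fold changes were 0.40 ± 0.08 in Control (adjusted p = 0.00104) and 0.55 ± 0.15 in Mta123KO (adjusted p = 0.0301). The Mta123KO call was lost in 5 of 8 fits without 1 library, those without 2iL library 1_1 or 1_2 or 48 h library 1_2, 2_1 or 2_2 (adjusted p 0.0594 to 0.0761), and with spike-in scaling (adjusted p = 0.0757), and it passed with the replicate block (adjusted p = 0.00101). With all libraries, the difference between Mta123KO and Control did not pass under either label, at -0.09 ± 0.14 labelled 2iL (adjusted p = 0.632) and 0.08 ± 0.09 labelled 48 h (adjusted p = 0.487). Labelled 2iL the lines lay on opposite sides of Control, and line 1 alone was lower (-0.37, adjusted p = 0.00831) while line 2 alone did not pass (0.14, adjusted p = 0.214).

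Of the 4 INK4 genes, Cdkn2a and Cdkn2d were higher in Mta123KO than in Control under both labels, Cdkn2c was lower under both, and Cdkn2b passed in neither comparison. Cdkn2a (ENSMUSG00000044303; minus strand of chromosome 4 at 89274471 to 89294653) encodes unrelated proteins from alternative start sites, the INK4 inhibitor p16Ink4a and the p53 regulator p19Arf, and counts per gene cannot tell these transcripts apart. Cdkn2b (ENSMUSG00000073802; p15Ink4b) is its neighbour on the same strand at 89306299 to 89311039. Cdkn2c (ENSMUSG00000028551; p18Ink4c) lies on the minus strand of chromosome 4 at 109660876 to 109667189, and Cdkn2d (ENSMUSG00000096472; p19Ink4d) on the minus strand of chromosome 9 at 21288410 to 21291407.

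Sequences before the start sites of Cdkn2a and Cdkn2b are shown because the 2 neighbours, and the 2 starts within Cdkn2a, are the INK4 sequences that the counts cannot resolve or that gave different results at one locus. They are from RefSeq on GRCm38.p6, written 5′ to 3′ on the minus strand, end where the gene annotation begins an exon or at the start site, and lie at chr4:89294654-89294869 (upstream start, p19Arf), chr4:89282193-89282442 (downstream start, p16Ink4a) and chr4:89311040-89311282 (Cdkn2b). Capitals mark a match to the E2F motif TTTCCCGC.
Cdkn2a upstream start: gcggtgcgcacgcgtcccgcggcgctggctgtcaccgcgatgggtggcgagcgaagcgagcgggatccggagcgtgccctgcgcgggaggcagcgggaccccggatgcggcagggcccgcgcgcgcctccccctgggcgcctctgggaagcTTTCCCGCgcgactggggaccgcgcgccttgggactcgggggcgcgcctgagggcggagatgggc
Cdkn2a downstream start: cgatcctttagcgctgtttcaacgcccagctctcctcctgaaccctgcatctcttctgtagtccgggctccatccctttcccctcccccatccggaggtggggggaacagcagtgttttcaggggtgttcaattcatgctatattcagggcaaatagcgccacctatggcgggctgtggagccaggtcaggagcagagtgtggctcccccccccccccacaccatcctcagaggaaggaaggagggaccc
Cdkn2b: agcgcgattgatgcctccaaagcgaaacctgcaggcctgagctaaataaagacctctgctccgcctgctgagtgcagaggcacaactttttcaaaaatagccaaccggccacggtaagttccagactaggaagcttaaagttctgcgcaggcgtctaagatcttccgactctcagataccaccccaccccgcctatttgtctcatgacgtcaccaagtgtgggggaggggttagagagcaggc

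The upstream window of Cdkn2a held 40 CpG dinucleotides in the 250 bases before its start, the downstream window held 7 and the Cdkn2b window 12, where the median of all 32851 promoter windows was 6. The E2F match lay 99 bases before the upstream start, and 0.895% of all windows of this length hold TTTCCCGC on either strand. The 10 windows of the 7 members found in the table had no other match to it, none to the E2F motif TTTGGCGC (in 0.417% of all windows), none to the TCF/LEF motif ATCAAAG (3.21%) and none to the STAT motif TTCNNNGAA (7.02%), both strands searched. These motifs do not overlap each other in the window that held a match. A match describes the letters only.

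Cdkn2a gave 6.93, 7.17, 8.14 and 9.98 CPM in Control labelled 2iL and 25.5, 25.0, 24.0 and 20.7 in Mta123KO labelled 2iL. The groups did not overlap, and the difference was 2.99-fold (log2 fold change 1.58 ± 0.13, adjusted p = 2.66e-05). Labelled 48 h, Control gave 9.86, 10.4, 11.7 and 10.4 CPM and Mta123KO 18.9, 18.6, 20.1 and 20.2, which was 1.85-fold higher (0.89 ± 0.08, adjusted p = 4.37e-05). The difference was present with either Mta123KO line alone, at 1.66 and 1.49 labelled 2iL and 0.84 and 0.94 labelled 48 h for lines 1 and 2. Cdkn2a thereby changed in opposite directions between the labels, up in Control (0.41 ± 0.12, adjusted p = 0.0143) and down in Mta123KO (-0.30 ± 0.09, adjusted p = 0.0412), with an interaction of -0.69 ± 0.15 (adjusted p = 0.00417). The rise in Control passed in 8 of 8 fits without 1 library. It was lost with the libraries of a line summed (0.41, adjusted p = 0.0813) and in line 2 alone (0.30, adjusted p = 0.109), and passed in line 1 alone (0.54, adjusted p = 0.00626). The fall in Mta123KO was lost in 7 of 8 fits without 1 library (adjusted p 0.0681 to 0.105 in these), with only the fit without 2iL library 2_2 keeping it, and with spike-in scaling (adjusted p = 0.297). The 29 tested genes within 5 Mb of Cdkn2a had a median log2 fold change of -0.21 in Mta123KO against Control labelled 2iL and -0.35 labelled 48 h.

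Cdkn2d encodes p19Ink4d, the INK4 protein whose level is known to oscillate through the cell cycle. It gave 5.82, 5.09, 5.36 and 6.37 CPM in Control and 13.2, 15.3, 11.7 and 12.8 in Mta123KO labelled 2iL, a 2.37-fold difference (1.25 ± 0.12, adjusted p = 4.71e-05). Labelled 48 h it gave 7.72, 9.25, 8.93 and 10.2 CPM in Control and 14.5, 17.1, 12.7 and 15.8 in Mta123KO, a 1.68-fold difference (0.75 ± 0.12, adjusted p = 0.00106). All Mta123KO libraries were above all Control libraries of the same label. Cdkn2d rose in Control by 0.69 ± 0.11 (adjusted p = 0.000356), did not pass in Mta123KO (0.18 ± 0.12, adjusted p = 0.353), and the interaction of -0.49 ± 0.17 (adjusted p = 0.0455) was lost in 12 of 16 fits without 1 library (adjusted p up to 0.0953), 6 of them without a Control and 6 without an Mta123KO library.

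Cdkn2c had the lowest counts of the INK4 genes, 18 to 134 per library. It gave 1.70, 0.977, 1.20 and 1.71 CPM in Control and 1.02, 0.952, 0.437 and 0.409 in Mta123KO labelled 2iL, with line 1 of Mta123KO inside the Control range or near it and line 2 below it. Labelled 48 h it gave 1.48, 1.79, 2.47 and 3.12 CPM in Control and 1.06, 1.03, 0.492 and 0.657 in Mta123KO, without overlap. The differences were -0.96 ± 0.35 labelled 2iL (adjusted p = 0.0436) and -1.44 ± 0.32 labelled 48 h (adjusted p = 0.00511). The first was lost without any 1 of the Control libraries 1_1, 2_1 and 2_2 or the Mta123KO libraries 2_1 and 2_2 (adjusted p 0.0617 to 0.108), and with line 1 alone it was -0.49 (adjusted p = 0.154) against -1.70 with line 2 alone (adjusted p = 0.00176). The rise of Cdkn2c in Control from the 2iL to the 48 h label (0.68 ± 0.26, adjusted p = 0.0473) was likewise lost without 2iL library 1_2 or 2_1 or 48 h library 2_1 or 2_2 (adjusted p 0.0983 to 0.145), and was 0.30 in line 1 (adjusted p = 0.458) and 0.96 in line 2 (adjusted p = 0.013).

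Cdkn2b, whose product p15Ink4b is best known as a TGF-beta target, stayed between 2.59 and 5.88 CPM in all 16 libraries. Its mean was 4.49 ± 0.865 (SD, n = 4) in Control and 5.52 ± 0.329 in Mta123KO labelled 2iL, and 3.32 ± 0.785 and 4.47 ± 0.465 labelled 48 h. Neither genotype difference passed (0.31 ± 0.15, adjusted p = 0.111, and 0.44 ± 0.18, adjusted p = 0.0745). The culture changes were -0.43 ± 0.19 in Control (adjusted p = 0.0768) and -0.31 ± 0.12 in Mta123KO (adjusted p = 0.104), and both passed with the replicate block (adjusted p = 0.00601 and 0.0484).

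Per kilobase, Cdkn2a had the highest mean of the INK4 genes in all 4 groups. Its counts do not separate p16Ink4a from p19Arf transcripts, so the sums and shares below can include transcripts that encode no INK4 protein. Its level was 6.87 ± 1.18 per-kilobase CPM in Control and 20.3 ± 1.85 in Mta123KO labelled 2iL, next to 3.59 ± 0.354 and 8.42 ± 0.960 for Cdkn2d, 3.23 ± 0.622 and 3.97 ± 0.237 for Cdkn2b, and 0.520 ± 0.136 and 0.262 ± 0.121 for Cdkn2c. In Control labelled 2iL, Cdkn2d and Cdkn2b lay within each other's spread. The summed INK4 level was 14.2 ± 1.97 in Control and 32.9 ± 2.56 in Mta123KO labelled 2iL, and 17.98 ± 1.79 and 29.6 ± 0.873 labelled 48 h, with Mta123KO libraries above Control libraries under both labels (29.6 to 35.3 against 12.4 to 16.8, and 28.7 to 30.5 against 15.7 to 19.6). Beside Ccnd1 at 26.0 ± 2.68 per-kilobase CPM in Control labelled 2iL, Cdkn1b stood at 5.69 ± 0.540 and Cdk6 at 1.97 ± 0.237.

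**Figure D3:**
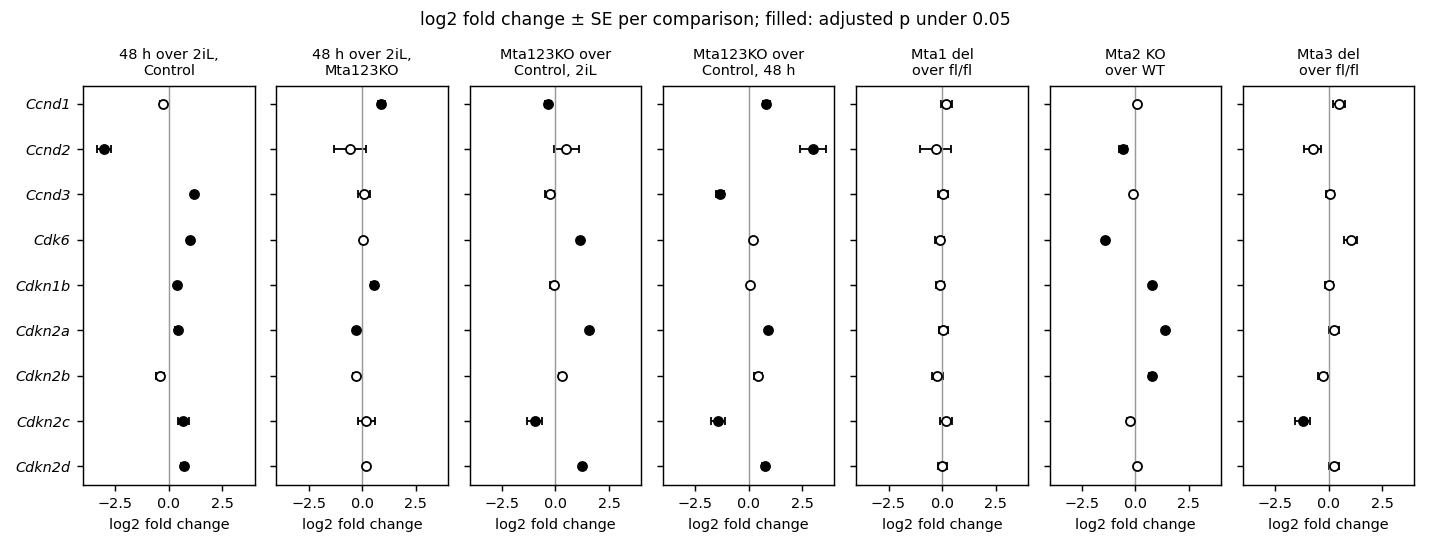
Log2 fold change (x axis) with its standard error (bar) for the 9 genes in 7 comparisons; filled points passed an adjusted p of 0.05 over all genes and open points did not. The largest changes are those of Ccnd2, -3.03 with the 48 h label in Control and 2.99 in Mta123KO against Control labelled 48 h, and no gene is filled for the Mta1 deletion.

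Markers of other cell types moved with genotype beside these changes. All 6 trophoblast genes (Cdx2, Eomes, Elf5, Gata3, Krt8, Krt18) were higher in Mta123KO than in Control labelled 2iL, against 27.1% of all tested genes. Labelled 48 h 4 of 6 were, against 26.6%. Their log2 fold changes ran from 1.86 to 5.61 (Gata3) labelled 2iL and from -0.50 to 6.49 (Krt18) labelled 48 h. Their summed level was 15.5 to 17.0 CPM in Control and 69.0 to 375 in Mta123KO labelled 2iL, and 15.4 to 20.2 and 137 to 711 labelled 48 h. None of the 6 was at 0 in a whole group. The 5 neural genes summed to 83.3 to 109 CPM in Control and 36.0 to 45.3 in Mta123KO labelled 2iL, 6 primitive endoderm genes to 3.997 to 18.1 and 6.74 to 11.3, and 6 fibroblast genes to 2.60 to 5.40 and 6.52 to 8.09. Labelled 48 h, the sums in Control and Mta123KO were 29.2 to 33.1 and 32.5 to 40.9 CPM for the neural genes, 3.50 to 4.88 and 4.96 to 6.71 for the primitive endoderm genes, and 1.73 to 2.05 and 2.60 to 5.36 for the fibroblast genes, of which 1 was at 0 in all Control libraries. The naive genes summed to 442 to 577 CPM in Mta123KO labelled 2iL and 1959 to 2892 labelled 48 h. The 4 general pluripotency genes summed to 842 to 1376 CPM in the libraries of this series, but single genes moved within that sum. From the 2iL to the 48 h label 3 were higher and 1 lower in Control, and 0 higher and 2 lower in Mta123KO. Lin28a had the largest log2 fold change in both (-3.49 and -2.35). The part of these differences in the levels of the 9 genes was not tested. In bulk RNA, a different share of cells of a type and a different amount of RNA per cell cannot be told apart.

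The remaining G1 and S phase genes were examined as a list of 37, of which 12 were higher and 11 lower from the 2iL to the 48 h label in Control and 2 higher and 9 lower in Mta123KO. All tested genes had 29.5% higher and 29.0% lower in Control and 12.4% and 10% in Mta123KO. Against Control, 6 were higher and 19 lower in Mta123KO labelled 2iL, and 8 higher and 24 lower labelled 48 h, with list medians of -0.34 and -0.47 where all genes had 0.01. The shares of all tested genes were 27.1% higher and 24.2% lower labelled 2iL, and 26.6% and 23.4% labelled 48 h. The licensing and S phase genes were lower for 8 of 9 labelled 2iL (range -0.82 to -0.38) and 9 of 9 labelled 48 h (-1.02 to -0.40), Cdt1 being lowest in both. E2F and DP factors were 1 higher and 5 lower of 10 labelled 2iL, and 3 higher and 6 lower labelled 48 h, with log2 fold changes from -1.47 (E2f2) to 1.28. Of the 6 activators and ligases, Myc was 1.97 lower on the log2 scale in Mta123KO labelled 2iL.

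Cdk4, the other D cyclin kinase, was lower in Mta123KO by 0.47 on the log2 scale under both labels (-0.47 ± 0.05 and -0.47 ± 0.05, adjusted p = 0.000127 and 0.000108). Cdk2 fell by 0.50 and by 0.51, and Ccne1, its cyclin E partner, by 0.54 and by 0.53. Ccne2 passed in neither comparison (0.15 and -0.22). Cdk1, Ccna2 and Ccnb1, which act in S phase and mitosis, were at 0.21, -0.07 and 0.15 labelled 2iL, where only Cdk1 passed, and at -0.30, -0.22 and -0.29 labelled 48 h, where all 3 passed. Rb1, the gene of the retinoblastoma pocket protein, was higher in Mta123KO under both labels (1.15 ± 0.11 and 1.38 ± 0.15, adjusted p = 6.18e-05 and 9.82e-05), Rbl2 labelled 2iL (0.50), and Rbl1 was lower labelled 48 h (-0.70).

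Cdkn1a, which encodes the p53 target p21, was 1.18 ± 0.19 higher on the log2 scale in Mta123KO labelled 2iL (adjusted p = 0.000805) and 0.48 ± 0.15 higher labelled 48 h (adjusted p = 0.0225), and rose with the 48 h label in both genotypes (1.49 and 0.78). Cdkn1c, the imprinted gene of p57, averaged 28.5 ± 8.82 CPM in Control labelled 2iL and 2.51 ± 0.333 labelled 48 h, a fall of -3.49 ± 0.22 (adjusted p = 2.13e-07). In Mta123KO labelled 48 h its libraries ran from 3.98 to 101 CPM, all above the 2.13 to 2.84 of Control (4.33 ± 1.07, adjusted p = 0.00825). From the 2iL to the 48 h label in Control, Cdk2 (0.56), Ccne2 (0.43), Cdk1 (0.14), Rbl1 (0.65) and Rbl2 (0.29) rose and Ccne1 (-0.80), Ccna2 (-0.12) and Rb1 (-0.59) fell, while Cdk4 (-0.05) and Ccnb1 (0.08) did not pass. In Mta123KO, Cdk2 rose (0.54), Cdk1 (-0.38), Ccne1 (-0.79), Ccna2 (-0.28) and Ccnb1 (-0.38) fell, and the others of this group did not pass.

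**Figure D4:**
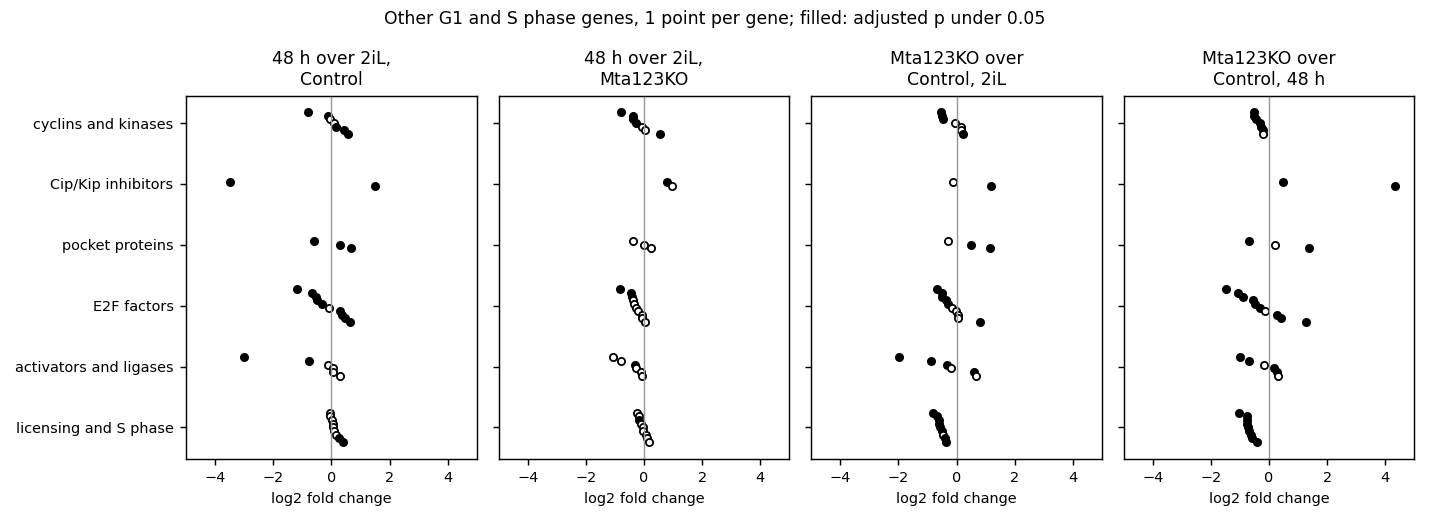
Log2 fold changes (x axis) of 37 other G1 and S phase genes in 6 lists (rows), 1 point per gene, for the culture change in each genotype and for Mta123KO against Control under each label; filled points passed an adjusted p of 0.05. All 9 licensing and S phase genes lie below 0 in Mta123KO against Control under both labels, and Cdkn1c is the point at 4.33 labelled 48 h.

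Across the 16 libraries, the 9 genes were compared with 17068 genes of at least 1 CPM on average for the most similar patterns, for the 2 members with the widest range of group means on the log2 CPM scale, Ccnd2 (3.15) and Cdkn2c (1.65). The genes most like Ccnd2 were Cmtm4 (Pearson's r = 0.971), Adgrl2 (0.967) and Adgrb2 (0.958). Those most like Cdkn2c were Gm17133 (0.954), Man2a1 (0.951) and Klhl9 (0.927). The 16 points share lines, cultures and normalization, and the values describe these libraries only.

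Among the single mutants, Ccnd2, Cdk6 and 3 of the 5 inhibitor genes (Cdkn1b, Cdkn2a and Cdkn2b) passed in Mta2_KO against Mta2_WT. In that pair 23.5% of all tested genes were higher and 24.3% lower. None of the 9 passed with Mta1 deletion, where 0.0% of genes were called in either direction. With Mta3 deletion Cdkn2c was lower, where 8.32% of tested genes were higher and 7.84% lower. Cdk6 gave 78.8, 79.0 and 79.1 CPM in Mta2_WT and 29.1, 28.2 and 30.1 in Mta2_KO, a 2.71-fold fall (log2 fold change -1.44 ± 0.04, adjusted p = 1.67e-08). In Mta123KO, by contrast, Cdk6 was higher than in Control labelled 2iL (1.14) and did not pass labelled 48 h (0.20). Cdkn2a gave 3.93, 3.83 and 4.08 CPM in Mta2_WT and 9.97, 10.5 and 10.1 in Mta2_KO, 2.58-fold higher (1.37 ± 0.09, adjusted p = 2.23e-06), and so was higher in Mta2_KO and in Mta123KO against their respective controls. The neighbour Cdkn2b rose as well, from 2.46, 2.40 and 2.17 CPM to 4.27, 4.06 and 3.71 (0.78 ± 0.13, adjusted p = 0.000801).

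Cdkn1b rose 1.69-fold in Mta2_KO, from 29.8, 26.6 and 27.1 CPM to 43.7, 48.0 and 49.6 (adjusted p = 1.72e-05), with no overlap between the groups. Ccnd2 gave 1.91, 2.03 and 2.17 CPM in Mta2_WT and 1.57, 1.05 and 1.46 in Mta2_KO. Its change of -0.58 ± 0.20 (adjusted p = 0.035) was lost in 5 of 6 fits without 1 library, all but that without Mta2_KO library 1 (adjusted p 0.0585 to 0.0848), and in DESeq2 (adjusted p = 0.106). Ccnd1 (0.08 ± 0.06), Ccnd3 (-0.10 ± 0.04), Cdkn2c (-0.26 ± 0.15) and Cdkn2d (0.07 ± 0.08) did not pass, with adjusted p of 0.308, 0.0823, 0.206 and 0.555. Of these, Cdkn2d was higher in Mta123KO under both labels (1.25 and 0.75) and Cdkn2c lower under both (-0.96 and -1.44). In both Mta2 groups Ccnd3 took the larger share of the D cyclin family per kilobase, 68.8% ± 1.05 (SD, n = 3) in Mta2_WT and 66.3% ± 0.551 in Mta2_KO, with Ccnd1 at 30.3% ± 1.06 and 33.1% ± 0.510. In the Mta1 and Mta3 parents Ccnd1 held 72.7% ± 8.07 and 56.3% ± 5.81.

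The Mta3 pair was more variable. Cdkn2c gave 3.12, 2.99 and 4.71 CPM in Mta3_flox/flox and 1.14, 2.22 and 1.34 in Mta3_del/del, a fall of 1.20 ± 0.35 on the log2 scale (log2 fold change -1.20, adjusted p = 0.0491) without overlap. It was lost in 5 of 6 fits without 1 library, all but that without Mta3_del/del library 2, and the adjusted p in these fits ran up to 0.174. The call was also lost with the replicate number as a block. Cdk6 gave 45.7, 36.2 and 31.6 CPM in Mta3_flox/flox and 82.9, 39.8 and 107 in Mta3_del/del, and 1.02 ± 0.31 missed the threshold (adjusted p = 0.0563). Without Mta3_del/del library 2, Cdk6 (1.35, adjusted p = 0.00651) and Ccnd1 (0.79, adjusted p = 0.00911) passed, and with all libraries Ccnd1 was at 0.48 ± 0.28 (adjusted p = 0.241), with 148, 66.5 and 155 CPM against 76.3, 91.1 and 98.3. Cdk6 also passed in DESeq2 (adjusted p = 0.00186). The fibroblast genes summed to 12.6 to 59.5 CPM in Mta3_flox/flox and 5.69 to 6.70 in Mta3_del/del, and their part in these values was not tested. The other 6 members did not pass, with log2 fold changes from -0.74 (Ccnd2) to 0.26 (Cdkn2a).

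With Mta1 deletion the 9 log2 fold changes ran from -0.30 (Ccnd2) to 0.20 (Ccnd1), each smaller than or close to its standard error. No gene of the 14561 tested passed, in edgeR or in DESeq2, Mta1 included, and 50 genes had an unadjusted p under 0.05 in edgeR. These are fewer than that threshold would give among unchanged genes. With the replicate number as a block, which pairs libraries that deviated together, 507 of 14986 genes had an unadjusted p under 0.05 and 0 were called. The lack of calls therefore does not show a lack of change. Ccnd1 gave 211, 117 and 191 CPM in Mta1_flox/flox and 235.5, 176 and 186 in Mta1_del/del, and Cdk6 115, 114 and 73.2 against 110.5, 87.4 and 81.2, so that libraries of a group spread more widely than in the Mta2 pair.

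**Figure D5:**
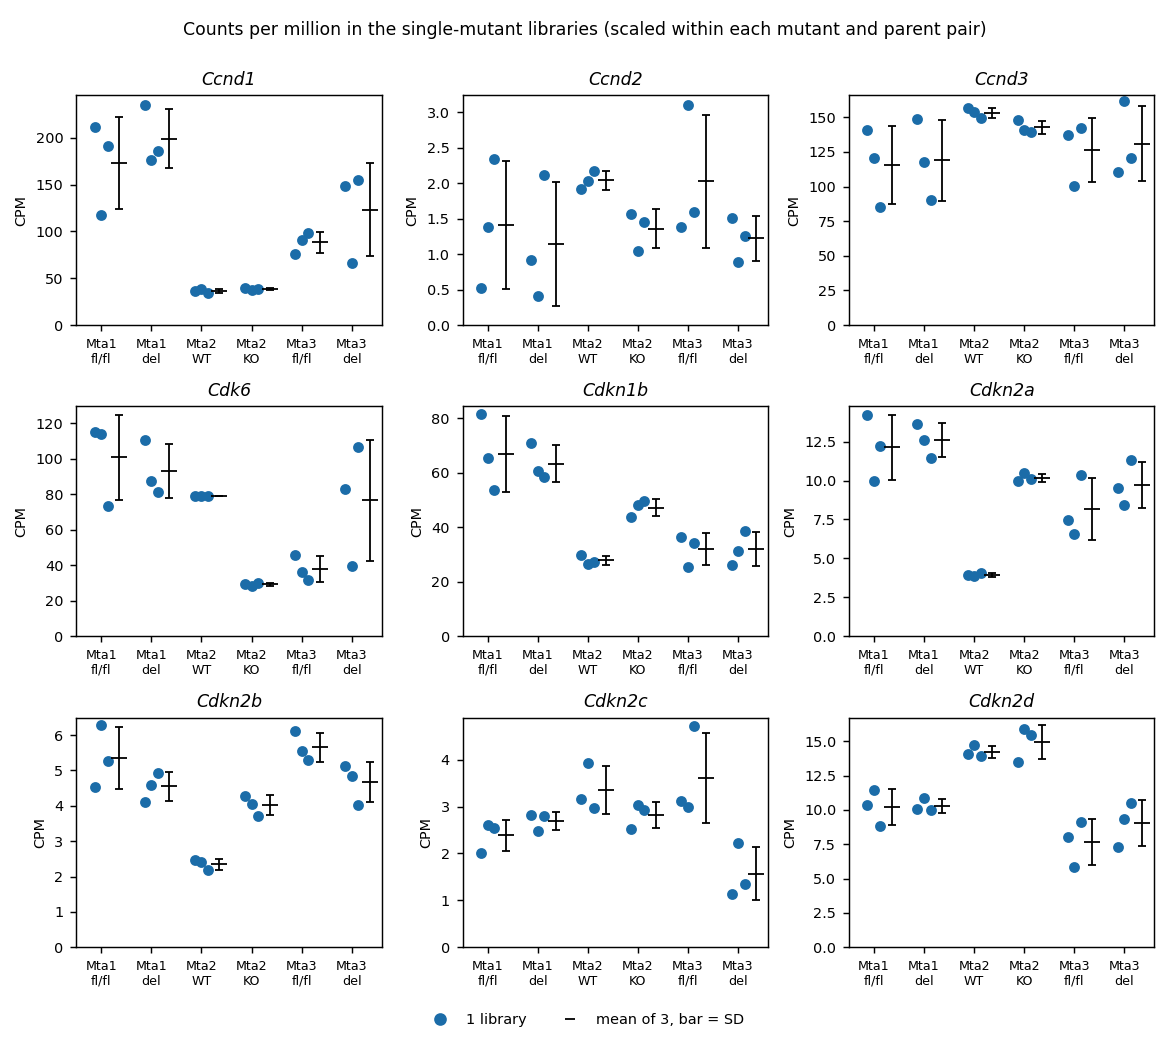
CPM (y axis, linear from 0, scaled within each mutant and parent pair) of the 9 genes in the 18 single-mutant libraries; points are libraries and the black dash and bar give the mean and SD of 3. Cdk6 lies at 78.8 to 79.1 CPM in Mta2_WT and at 28.2 to 30.1 in Mta2_KO, while the Mta1 groups overlap for all 9 genes.

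Some members overlap other genes, and whether reads were counted by strand is not given in the sources used here. Ccnd1 overlaps the coding gene LTO1 and Ccnd3 overlaps Bysl, each on the opposite strand. Ccnd2 overlaps the antisense genes Gm43126 and 9330179D12Rik, and Cdk6 overlaps Gm17590 and Gm42435. Ccnd3 also has a pseudogene copy, Ccnd3-ps, elsewhere in the genome. Cdkn1b and the INK4 genes overlap no annotated gene.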

How the data were processed

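RNA-seq was done on 34 libraries of mouse ES cells. The authors trimmed reads with Trim Galore, aligned them to GRCm38 with TopHat2 and counted them per gene with featureCounts, and deposited whole-number raw counts per gene, 1 file per library. Library kit and strand setting are not given per library in the sources used here.

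Groups were taken from the sample labels. Counts were tested with edgeR 4.0.16 (quasi-likelihood F test, filterByExpr, TMM scaling, Benjamini-Hochberg adjustment over all genes tested, threshold 0.05) in R 4.3.3, with the groups of each comparison fitted alone and all 4 groups fitted for the interaction. DESeq2 1.42.0, other scaling, no filter, replicate blocks, single lines, summed lines and the removal of each library were alternatives; line as a block was added after seeing the data. The scripts were tested on simulated data. CPM are counts over the library total after TMM scaling of that total, not over the plain total. Per-kilobase values divide CPM by the exon length of the gene.

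The members and lists were chosen with earlier results of these data known. All 9 members are named. Of 37 other G1 and S phase genes, the cyclin, kinase, Cip/Kip and pocket protein genes are named, and otherwise the gene with the largest change. For the 2 members with the widest range, the 3 genes with the highest correlation are named, on log2 CPM with a prior count of 2.

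Same-numbered libraries deviated together for the culture comparisons, which share lines (correlations 0.221 to 0.289 in Control and 0.495 to 0.541 in Mta123KO), and for Mta1 (0.434 to 0.702). These numbers pair the libraries, but the values reported are from fits without the block. The blocked value stands beside a culture change or interaction where it changes the call. For Mta123KO against Control labelled 2iL, 4 members passed with the block and 5 without it. For Mta3, 0 passed with the block and 1 without it.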

Additional observations from a re-analysis of the deposited data

Results flagged for a closer look

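In Mta123KO labelled 48 h, the lowest Cdkn2b library (line 2, 3.78 CPM) stood apart from the other 3, which ran from 4.63 to 4.79. It was the only such case among 36 sets of 1 gene and 1 group, where chance gives about 1 in 20. The culture change differed between Mta123KO and Control by a tested interaction, on the log2 scale, of 1.18 for Ccnd1, -1.06 for Ccnd3, -0.94 for Cdk6, -0.69 for Cdkn2a and -0.49 for Cdkn2d.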

How the results depend on the processing

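Of 1089 values of the 9 genes under alternatives, 949 kept their direction and side of the threshold, 79 were no longer past it, 31 newly passed, 29 changed sign without passing in either setting, and 1 reversed, Ccnd2 in Mta123KO against Control labelled 2iL with Mta123KO line 2 only (-1.11). Unless named, the cause was not tested.

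Counts below give members and then all genes. Requiring a 2-fold change as well left 2 and 5015 for the Control culture change (7 and 12419 without it), 0 and 2035 for the Mta123KO culture change (3 and 4817), 3 and 4470 for Mta123KO against Control labelled 2iL (5 and 11115), 3 and 4218 labelled 48 h (6 and 10548), 2 and 2993 for the interaction (5 and 5306), 2 and 1770 for Mta2 (5 and 7460) and 941 genes for Mta3 (2508). Summing the libraries of a line, which leaves fewer samples, gave 5 and 10890 for the Control culture change and 0 and 0 for the Mta123KO culture change. It gave 3 and 3758 for Mta123KO against Control labelled 2iL, 3 and 4085 labelled 48 h, and 0 and 710 for the interaction. Spike-in scaling gave 1 and 2555 for the Mta123KO culture change and 3 members labelled 2iL.

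With the replicate number as block, which the shared lines pair, the Control culture change had 9 members, the Mta123KO culture change had 5 and 9534, and the interaction 8634 genes. Line as a block, added after seeing the data, gave 5 and 10470. The Mta123KO culture change called 10019 genes in line 1 only and 8998 in line 2 only. For Mta3, 2 members passed in DESeq2, 2 without the filter on low counts, 2 in one fit of all 18 libraries and 0 with the replicate block. One fit of 18 libraries called 2622 genes for Mta2. The Mta1 deletion called 0 genes in edgeR, with 0 in the blocked fit and in DESeq2.

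Leaving out 1 library gave 1 to 3 members for the Mta123KO culture change, 3 to 5 for Mta123KO against Control labelled 2iL, and 0 to 3 members and 3 to 4131 genes for Mta3. The Mta3 gene count was 3 without Mta3_del/del library 1, 4131 without library 2 and 375 without library 3, and 964, 443 and 582 without Mta3_flox/flox libraries 1, 2 and 3. Counts were low for Cdkn2c, at 18 to 134 per Control or Mta123KO library, and for Ccnd2, at 20 to 64 in Control labelled 48 h and 8 to 83 in the single-mutant libraries.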
